A study of Rattus norvegicus with 38 samples.

Results

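The study was run in 2 cohorts of Sprague Dawley rat pups, and the comparison described here sets the change in DNA methylation of each cohort 2 pup between postnatal day (P) 2 and P10 against that of each cohort 1 pup. Its members were all pups with a sample at both ages: 8 pups of cohort 2 (4 control and 4 LBN) and 11 pups of cohort 1 (6 control and 5 LBN), which are all 19 pups and all 38 samples of the series. LBN stands for limited bedding and nesting, a cage with sparse bedding and little nesting material in which pups and dam stayed from P2 to P9, while control pups were kept in cages with standard bedding. The P2 swab was taken before pups were assigned to a cage, so the P2 samples of both experiences came from pups of like rearing, and pups of several litters were mixed before they were given to a dam. According to the submitters' description of the design the cohorts differed only in the dates on which they were run, so every difference between cohorts given here is also a difference between dates, and cohort and date cannot be told apart. The dam and sex of each pup were not given with the samples, pups of a cage share a dam, and p-values measure the spread between pups only.

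The 2 swabs of a pup were measured by reduced representation bisulfite sequencing (RRBS), which cuts DNA at CCGG with MspI and reads the CpG-rich fragments after bisulfite treatment. The percentage of methylated reads was deposited for 3417 differentially methylated regions (DMRs), and 3354 of them had no value of 0 in any sample and were used here. These DMRs had been selected by the authors because they differed between P2 and P10 within single pups of these cohorts, so that many of them change with age is how they were chosen. δ methylation is log2(P10/P2) of the percentage in the same pup, so a negative value is a loss by P10 and a value of 0 is no change. The reads behind each percentage were not part of the files used here, so the depth is unknown and no interval for a single value could be given. Values of exactly 0 or 100, which few reads make more likely, made up between 0% and 0.673% of a cohort 1 P2 sample and up to 1.05% of a cohort 2 P10 sample, with medians of 0.0585% and 0.205%. Their part in the results was not tested.

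DNA methylation is the addition of a methyl group to cytosine, in mammals mostly where a guanine follows, and it is copied through cell division by maintenance methyltransferases. Each cell type carries its own pattern, and genes that are active in a lineage often lose methylation at their promoters and enhancers in that lineage. A buccal swab collects epithelial cells of the cheek together with white blood cells, and the fraction of each can vary between swabs, so a lower percentage in a swab may be a lower level in the same cells or a different mixture of cells. Samples varied widely: over all 3417 DMRs, pairs of samples correlated at 0.168 to 0.932, and the first principal component of the percentages held 44.4% of the variance.

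Cohort 2 pups lost methylation over the week, whereas cohort 1 pups changed little on average. The mean level over the 3354 DMRs was 49.3% ± 1.15 (SD, n = 8) at P2 and 42.9% ± 2.44 at P10 in cohort 2. In cohort 1 it was 52.2% ± 1.49 (SD, n = 11) at P2 and 51.8% ± 1.79 at P10. The change in percentage points ran from −9.79 to −4.22 in cohort 2, with a median of −5.79, and from −4.38 to 3.04 in cohort 1, with a median of 0.498. It was below 0 in 8 of 8 pups of cohort 2 and in 5 of 11 pups of cohort 1, and the cohorts overlapped by a narrow margin, since the control pup C9 of cohort 1, at −4.38, lay below the control pups C1 and C5 of cohort 2, at −4.27 and −4.22.

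On the log2 scale, mean δ methylation ranged from −0.37 to −0.08 in cohort 2, with a median of −0.29, and from −0.13 to 0.07 in cohort 1, with a median of −0.01. In cohort 2, 7 of 8 pups lay below every pup of cohort 1, and the exception was the control pup C11, at −0.08. The means were −0.25 ± 0.11 (SD, n = 8) and −0.02 ± 0.07 (n = 11), and the difference of −0.23, adjusted for experience, had an exact permutation p of 0.000189 (two-sided, over all 26460 arrangements of the cohort labels within experience; adjusted over 9 measures per pup 0.000425). A pup of cohort 2 had a median of 60.9% of its DMRs lower at P10, with a range of 54.3% to 72.9%, against 48.7% in cohort 1, with a range of 42.0% to 58.3% (exact permutation p = 0.000756, adjusted 0.00113). DMRs that fell by more than 1 on the log2 scale made up 14.6% ± 4.75 of a cohort 2 profile and 7.78% ± 4.06 of a cohort 1 profile (exact permutation p = 0.00567, adjusted 0.00729). DMRs that rose by more than 1 made up 4.49% ± 4.40 and 6.58% ± 4.97, which was within the spread between pups (exact permutation p = 0.382). The cohorts therefore differed in the share of DMRs that fell at all and in the share that fell by more than 1, while no difference in the share that rose by more than 1 was detectable with these pups.

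**Figure D1:**
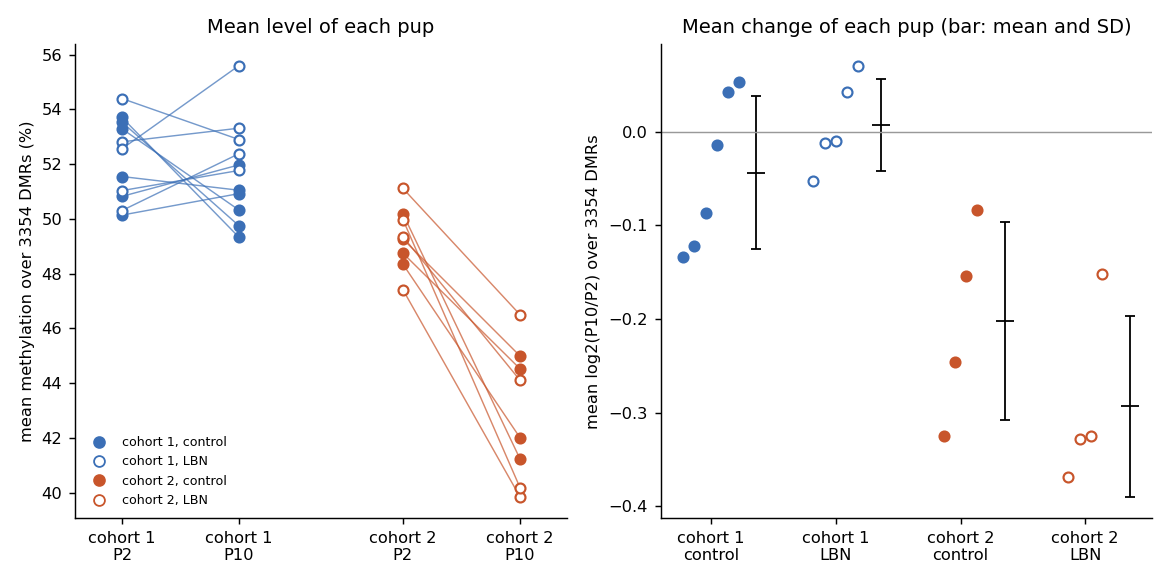
Each pup's mean methylation level at P2 and P10 (left, in percent, lines join the swabs of a pup) and its mean δ methylation, log2(P10/P2) (right, bars give mean and SD of a group). Filled points are controls and open points are LBN pups. All 8 lines of cohort 2 fall, from 49.3% to 42.9% on average, and all 8 of its P10 levels lie below every other sample.

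The difference in δ methylation is the difference in level at P10 minus that at P2. Cohort 2 was lower at both ages and by more at P10, so its lower P2 level made the difference in δ smaller. At P2, before the pups were assigned to cages, the mean level of cohort 2 was 2.90 percentage points lower than that of cohort 1 (exact permutation p = 0.000718, adjusted 0.00113), and the cohorts overlapped, from 47.4% to 51.1% against 50.1% to 54.4%. At P10 it was 8.89 points lower, with no overlap: cohort 2 ran from 39.8% to 46.5% and cohort 1 from 49.3% to 55.6%. The exact permutation p of the P10 difference was 3.78e-05, the smallest that the arrangements allow. DMR by DMR, limma on log2 levels with Benjamini-Hochberg adjustment placed 280 of 3354 DMRs lower and 71 higher in cohort 2 at P2, and 1419 lower and 237 higher at P10. The P10 levels of the cohorts did not overlap at 190 DMRs (5.66% of those tested), with cohort 2 the lower at 187, against 13 DMRs at P2. Without 1 pup, the P2 counts ranged from 167 lower (without C1 of cohort 2) to 509 lower (without LBN3 of cohort 1). Median differences were −0.08 at P2 and −0.25 at P10. When the median of each sample was subtracted first, the P2 counts became 148 lower and 200 higher and the P10 counts 644 lower and 1298 higher, so which direction was the more frequent depended on the shift common to all DMRs.

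In the mean over all DMRs, the experiences gave differences of the same sign. Among controls, mean δ methylation was −0.20 ± 0.11 (SD, n = 4) in cohort 2 and −0.04 ± 0.08 (n = 6) in cohort 1, a difference of −0.16 (exact permutation p = 0.0381). Among LBN pups it was −0.29 ± 0.10 (n = 4) and 0.01 ± 0.05 (n = 5), a difference of −0.30 (exact permutation p = 0.00794, with every pup of cohort 2 below every pup of cohort 1). The difference of these differences, −0.14, had an exact permutation p of 0.0969 over 32340 arrangements of experience within cohort, which does not show that the experiences differed here. In limma, LBN pups alone gave 738 DMRs lower and 104 higher in cohort 2, and controls alone gave 0, with 367 at an unadjusted p under 0.05. Tested as an interaction, 1 of 3354 DMRs passed the threshold, with 840 at an unadjusted p under 0.05. The number past the threshold was 238 without LBN4 of cohort 1, 49 without C12 of cohort 1 and 0 without any of 12 other pups.

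Over the single DMRs, 201 fell further or rose less in cohort 2 than in cohort 1 and 7 the other way, by limma on δ methylation with experience as covariate (adjusted p under 0.05), which is 6.2% of the 3354 tested. The difference was below 0 at 2370 DMRs, its median was −0.16 with a median SE of 0.24, and 709 DMRs had an unadjusted p under 0.05. Relative to the median change of each pup, which removes a shift of −0.18 between cohorts, 72 were lower and 17 higher. All 72 and 7 of those 17 were among the 208. Without 1 pup, the lower count ranged from 111 (without the control pup C8 of cohort 2) to 420 (without the control pup C11 of cohort 2) and the higher count from 2 (without LBN4 of cohort 2) to 15 (without C9 of cohort 1). The lower count also left the range of 1.5 times without LBN4 (118) or LBN11 (116) of cohort 2 and without C6 (384) or C9 (341) of cohort 1. The higher count rose to 11 without C6 of cohort 1 and to 12 without C11 of cohort 2, and fell to between 2 and 4 without C3, C4, C7, LBN3, LBN9 or LBN12 of cohort 1 or C5, C8, LBN4 or LBN11 of cohort 2.

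Most of the 201 DMRs had no change past the threshold in cohort 1 and fell in cohort 2. This does not mean that each cohort 1 pup was stable. For example, δ in cohort 1 ran from −1.37 to 1.71 at the DMR of Sdc1 and from −1.63 to 1.55 at that of B4galt4. The median level of the 201 went from 63.9% at P2 to 62.1% at P10 in cohort 1 and from 55.5% to 28.4% in cohort 2. In cohort 2, 197 of them fell past the threshold, against 24.6% of all DMRs tested, and at 152 of them all 8 pups were lower at P10. In cohort 1, 21 fell, 5 rose and 175 did not pass the threshold. Over all 3354 DMRs, 486 (14.5%) fell and 310 rose in cohort 1, so most DMRs did not pass there, whether among the 201 or not. At P10, 199 were lower in cohort 2 past the threshold (42.3% of all DMRs), and at P2 40 were lower (8.35% of all DMRs) and 2 higher. The difference was below 0 in controls alone and in LBN pups alone at 201 of 201, with medians of −0.71 and −1.17. In LBN pups alone 183 of the 201 passed, beside 738 of all 3354 DMRs that were lower there. These counts describe DMRs chosen by the cohort difference itself.

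At 12 DMRs, 0.358% of those tested, the δ values of the 8 and the 11 pups did not overlap, and at each of them cohort 2 was the lower. Of the 201, 140 were single CpG positions and 61 were longer. In either direction, 6.00% of the 2448 single positions tested and 6.73% of the 906 longer DMRs passed, so the kinds were called at like rates. The 7 DMRs with a higher δ in cohort 2 were single positions, as were most DMRs tested. Their changes differed from those of the 201: 6 of them fell in cohort 1 past the threshold, and 1, at Epha2, rose in cohort 2. Each of the 7 had a lower mean in cohort 2 at P2, by −0.71 to −0.29 on the log2 scale, and a higher mean at P10, by 0.20 to 0.70.

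**Figure D2:**
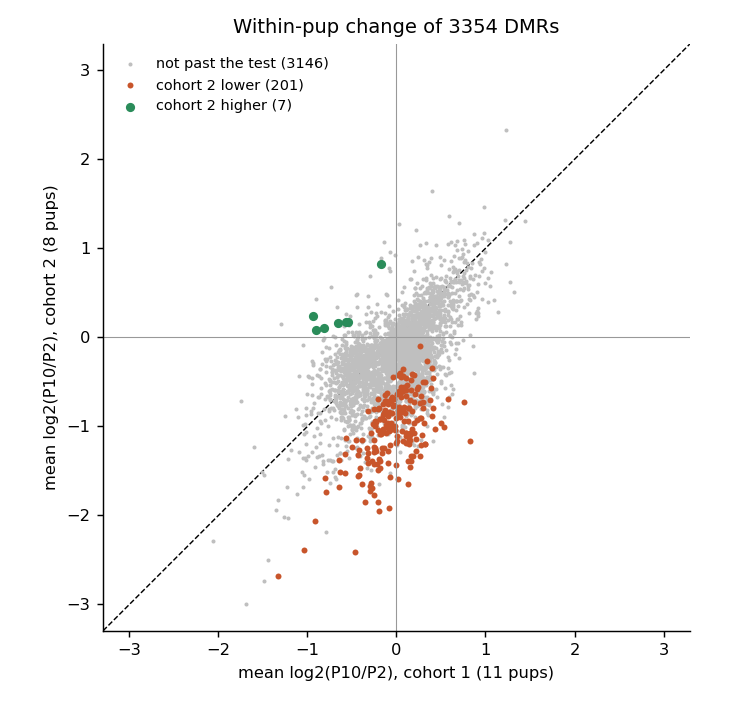
Mean δ methylation, log2(P10/P2), of each of 3354 DMRs in cohort 1 (x axis) and cohort 2 (y axis), with equal change on the dashed line. The 201 DMRs lower in cohort 2 lie below the line and mostly near 0 on the x axis, and the 7 higher lie above it.

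The cohorts also shared part of their change. Mean δ methylation was below 0 in both cohorts at 1429 DMRs and above 0 in both at 845. It was above 0 in cohort 1 and below 0 in cohort 2 at 953 DMRs, and the reverse at 127. In limma, 486 DMRs fell and 310 rose in cohort 1, and 824 fell and 201 rose in cohort 2. Of the DMRs that fell, 242 did so in both cohorts, which is 49.8% of those of cohort 1 and 29.4% of those of cohort 2. Over all DMRs, 24.6% fell in cohort 2 and 14.5% in cohort 1. Of those that rose, 144 did so in both, which is 46.5% and 71.6%, where 201 of all 3354 rose in cohort 2 and 310 in cohort 1. The study had kept changes with age that at least 2 pups of an experience shared, so part of this sharing can follow from that choice. Only 3 DMRs passed in both cohorts with opposite signs, and each rose in cohort 1 and fell in cohort 2. Across the 3354 DMRs the mean changes of the cohorts correlated at 0.578, as a description over regions measured in the same swabs.

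Llgl1 (exon, chr10:46948753-46948759, rn6) had the smallest p of all DMRs. It encodes a scaffold protein that sets up the basal and lateral side of epithelial cells. In cohort 2 its level ran from 61.5% to 82.4% at P2, with a median of 72.5%, and from 9.57% to 16.9% at P10, with a median of 14.1%. In cohort 1 it ran from 75% to 90.5% at P2, with a median of 83.0%, and from 38.5% to 85.5% at P10, with a median of 55.9%. All 8 cohort 2 pups ended below every cohort 1 pup, and their δ values, −2.89 to −1.87, did not overlap those of cohort 1, −1.23 to 0.16. The difference was −1.94 ± 0.19 (SE; limma adjusted p = 1.4e-05). It was −1.57 in controls and −2.35 in LBN pups.

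A pair of DMRs with no gene name came next. At chr8:126431995-126432028 the level fell in 8 of 8 cohort 2 pups, from a mean of 67.3% to 18.9%, while cohort 1 went from 82.1% to 72.0%. The difference in δ was −1.76 ± 0.22 (SE; limma adjusted p = 0.000338), and 7 of 8 pups of cohort 2 lay below all of cohort 1. At chr9:30971388-30971396 cohort 1 went from 62.8% to 73.8% and cohort 2 from 53.7% to 21.9%. There the δ values ran from −2.17 to −0.72 in cohort 2 and from −0.49 to 0.94 in cohort 1, without overlap, and the difference was −1.59 ± 0.22 (SE; limma adjusted p = 0.000628). Its P2 levels, 40.4% to 67.9% and 39.5% to 89.4%, overlapped, and its P10 levels, 12.7% to 30.1% and 49.2% to 87.1%, did not.

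Gene names were available for 422 of the tested DMRs. All 422 are among those that the study had picked from these same pups for their change with age or with experience, so the named genes are no independent sample. Other picked DMRs had no gene name. Of the 28 named DMRs past the threshold, 27 were lower in cohort 2, and 23 of the 28 came from the study's list of DMRs that lost methylation with age. Over that list, 33 of 121 tested DMRs were lower in cohort 2 and 0 higher, with a median of −0.87 and a mean level that went from 43.3% to 35.998% in cohort 1 and from 32.0% to 14.4% in cohort 2. Over the list of DMRs that gained methylation with age, 0 of 109 were lower and 1 was higher, with a median of 0.07. For the lists drawn from experience, 9 of 179 (5.03%) and 6 of 202 (2.97%) were lower, beside 5.99% of all DMRs, with medians of −0.18 and −0.14.

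The epithelial genes had the lowest median among the 9 gene lists examined. All 13 of their DMRs had a difference below 0, against 70.7% of all DMRs, with a median of −0.90 against −0.16. This count depends on how genes were placed in lists. Epha2, also a receptor of epithelial cells, was placed in the growth factor, Wnt and guidance list and had a difference of 0.99. Of the 13, 5 (38.5%, against 6.2% of all DMRs) were past the threshold: Llgl1, Sdc1, Krt42, Calml3 and Aqp3, of which the last 3 are named here because they passed. After subtraction of the median of each pup, 11 of 13 were below 0, the median was −0.72, and 2 passed (Llgl1 and Sdc1). Of the 13 DMRs, 10 were in the study's list of losses with age, where 118 of 121 DMRs (97.5%) were below 0 with a median of −0.87, so the epithelial values were close to those of that list. The mean level of the 13 ran from 34.2% to 50.6% at P2 and from 22.8% to 46.6% at P10 in cohort 1. In cohort 2 it ran from 25.2% to 37.0% at P2 and from 10.8% to 18.9% at P10, so at P10 every pup of cohort 2 was below every pup of cohort 1. Their mean δ overlapped, from −1.89 to −0.41 in cohort 2 and from −0.98 to 0.30 in cohort 1, and C1, C11 and LBN2 of cohort 2 lay above C6 of cohort 1.

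Sdc1 encodes syndecan, a heparan sulphate proteoglycan of the epithelial surface, and its DMR was intergenic (chr6:33875429-33875439). Its level ran from 7.92% to 29.6% at P2 and from 2.73% to 10.5% at P10 in cohort 2, and from 17.1% to 55.2% and from 20.1% to 55.9% in cohort 1. All 8 pups fell in cohort 2 and 5 of 11 in cohort 1, and the difference was −1.78 ± 0.39 (SE; limma adjusted p = 0.0111). Its P2 level was already lower in cohort 2 (limma adjusted p = 0.0199).

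Aqp3, a channel for water and glycerol in the basal membrane of epithelia, had an intergenic DMR (chr5:57411012-57411013) that fell in both cohorts. It went from a mean of 28.7% to 13.7% in cohort 1, in 11 of 11 pups, and from 20.4% to 4.80% in cohort 2, in 8 of 8 pups. The difference of −1.35 ± 0.35 (SE; limma adjusted p = 0.0265) was therefore one of extent, and it did not pass without C5, C8 or LBN2 of cohort 2 (adjusted p up to 0.0552). Krt42, a type I keratin, had a DMR (chr10:88181423-88181424) that went from 55.8% to 58.4% in cohort 1 and from 37.8% to 18.6% in cohort 2, a difference of −1.22 ± 0.34 (SE; limma adjusted p = 0.0412). The call at Krt42 was lost without any of 14 of the 19 pups (adjusted p up to 0.0938). The 3 next were picked after their values were seen. Lgals3, a galectin, and Dsc3, a desmosomal cadherin, had differences of −1.30 and −0.90 that did not pass. Epcam, an epithelial adhesion molecule, stood at mean levels of 6.95% to 13.0% in cohort 1 and 6.81% to 9.08% in cohort 2, with a difference of −0.53 that did not pass.

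Calml3, a calmodulin-like protein of epithelial cells, and Tbc1d31 were the only 2 of the 28 named DMRs annotated to a promoter. Calml3 (chr17:70071395-70071396) ran from 34.0% to 78.4% at P2 and from 10.4% to 33.3% at P10 in cohort 2, and from 66.1% to 95.7% and from 34.2% to 89.8% in cohort 1. All P10 levels of cohort 2 were below those of cohort 1, and the P2 levels overlapped although their means differed (49.4% and 79.2%, limma adjusted p = 0.00358). The difference in δ was −1.02 ± 0.26 (SE; limma adjusted p = 0.0271), and it did not pass without LBN12 of cohort 1 or C8, LBN4 or LBN11 of cohort 2 (adjusted p up to 0.0635). The 250 bases before the Calml3 start are shown because the DMR was annotated to this promoter, from RefSeq in GRCr8, plus strand, with each CpG in capitals.
Calml3: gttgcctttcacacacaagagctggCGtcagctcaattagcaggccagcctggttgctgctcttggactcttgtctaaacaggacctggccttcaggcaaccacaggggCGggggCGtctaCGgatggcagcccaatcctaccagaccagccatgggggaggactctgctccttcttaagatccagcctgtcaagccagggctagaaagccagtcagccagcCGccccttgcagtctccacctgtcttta
These bases hold 5 CpGs, equal to the median of all 33469 promoter windows of that length in the table, and no CCGG on either strand, which 46.2% of the windows hold. The DMR positions are in rn6, so where this DMR lies relative to these bases was not determined.

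Of the 17 DMRs at leukocyte genes, 0 passed in either direction, beside 6.2% of all DMRs, which would be about 1 DMR of such a list, and 7 were below 0, and the median was 0.07. The median of these DMRs was −0.26 in controls alone and 0.30 in LBN pups alone. Of the 17, 1 was in the study's list of losses with age, against 10 of the 13 epithelial DMRs. In the lists drawn from experience, with more and with less methylation after LBN, were 10 and 4 of the 17. The leukocyte and epithelial DMRs thus also differ in how the study picked them, and these cannot be told apart. Their mean level ran from 32.1% to 47.7% at P2 and from 27.4% to 39.5% at P10 in cohort 1. In cohort 2 it ran from 31.1% to 43.9% and from 24.7% to 40.0%, so the cohorts overlapped at both ages. The largest of these differences, −0.89 ± 0.60 (SE; limma adjusted p = 0.424), was at Sipa1, a GTPase-activating protein of lymphocytes, and it was −2.11 in controls and 0.43 in LBN pups. Cxcr1, a chemokine receptor of neutrophils picked after its values were seen, went from 33.0% to 15.02% in cohort 1 and from 29.0% to 16.8% in cohort 2, a difference of 0.33 that did not pass. The level of these epithelial and leukocyte DMRs was measured in swabs of mixed cells, and the part of cell mixture in the cohort difference was not tested.

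**Figure D3:**
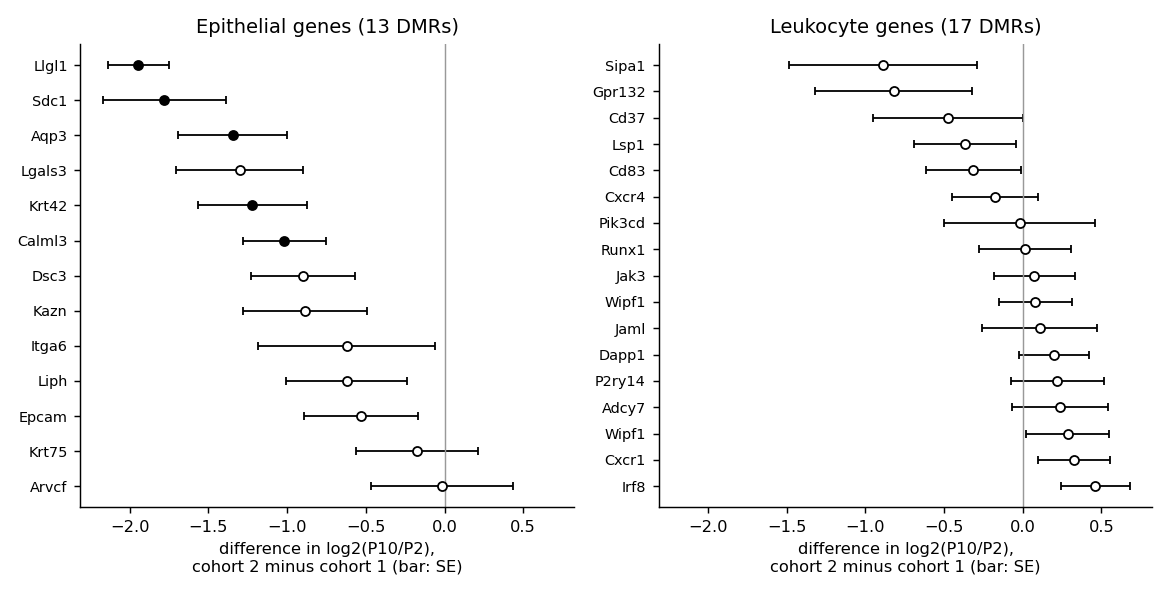
Difference in δ methylation, cohort 2 minus cohort 1 on the log2 scale, at each DMR of the epithelial (left) and leukocyte (right) gene lists, with its SE. Filled points passed an adjusted p of 0.05. All 13 epithelial DMRs lie below 0 and 5 of them passed, while the 17 leukocyte DMRs lie on both sides of 0 and none passed. Of the epithelial DMRs 10, and of the leukocyte DMRs 1, are in the study's list of losses with age.

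Kcnk5, a potassium leak channel, had an exonic DMR (chr15:4595203-4595204) that ran from 59.5% to 90.3% at P2 and from 11.8% to 46.0% at P10 in cohort 2, and from 74.5% to 95.8% and from 37.3% to 87.7% in cohort 1. It fell in 8 of 8 and 9 of 11 pups, the cohorts overlapped at both ages, and the difference was −1.42 ± 0.23 (SE; limma adjusted p = 0.00131). Kcnn4, a potassium channel opened by calcium, had an intergenic DMR (chr1:81225559-81225560) that went from 50.7% to 49.4% in cohort 1 and from 40.6% to 11.9% in cohort 2, a difference of −1.84 ± 0.36 (SE; limma adjusted p = 0.00581). Its P10 levels, 3.16% to 17.8% and 24.8% to 71.1%, did not overlap.

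Prkab1, a subunit of the energy sensor AMP kinase, fell in every pup of both cohorts, from 58.7% to 23.5% in cohort 1 and from 54.1% to 8.51% in cohort 2. Mical3, an enzyme that oxidises actin, fell from 90.6% to 69.1% and from 92.1% to 33.5%, with P2 levels of 82.4% to 95.3% and 86.5% to 98.8%, which overlapped. Mos, a kinase of maturing oocytes, went from 56.1% to 46.4% and from 65.8% to 19.6%, with a difference of −1.50 ± 0.38 (SE; limma adjusted p = 0.0264) that did not pass without C8, LBN4 or LBN11 of cohort 2 (adjusted p up to 0.0631). AABR07051218.1 went from 48.5% to 54.9% and from 38.5% to 16.7%. The remaining named DMRs past the threshold, at LOC102552318, Myom2, Nav2, Golga7b, Cpne5, Gtf3c6, Abhd2, Mmab, Slc25a37, Tmprss9 and Baalc, had differences between −1.36 and −0.56. Of these, 6 lost the call without at least 1 pup: Gtf3c6 without C5 or C8 of cohort 2, and Baalc, Tmprss9, Mmab, Slc25a37 and Abhd2 without any of 9 to 15 of the 19 pups.

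The 3 DMRs that rose in cohort 1 and fell in cohort 2 past the threshold were at Dapk1, at Tbc1d31 and at chr1:257086517-257086550. Dapk1, a kinase that promotes cell death, had an intronic DMR (chr17:4384985-4384986) that rose in 11 of 11 pups of cohort 1, from a mean of 43.1% to 70.8%, and fell in 5 of 8 pups of cohort 2, from 39.7% to 25.98%. Its P2 levels overlapped, 26.2% to 66.7% against 20% to 68.4%, and its P10 levels did not, 59.7% to 77.8% against 8.45% to 44.7%. The difference was −1.48 ± 0.34 (SE; limma adjusted p = 0.0139). The 3 cohort 2 pups that rose were the controls other than C1.

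Tbc1d31 (promoter, chr7:97759732-97759733), which encodes a protein found at centrioles, had the lowest difference of all DMRs, −1.99 ± 0.34 (SE; limma adjusted p = 0.00283), at low levels. It ran from 2.04% to 20% at P2 and from 4.98% to 21.5% at P10 in cohort 1, and from 1.89% to 11.9% and from 0.837% to 3.08% in cohort 2. The P10 levels did not overlap. At chr1:257086517-257086550 cohort 1 rose in 11 of 11 pups, from 59.0% to 76.5%, and cohort 2 fell in 6 of 8, from 60.2% to 48.2%, a difference of −0.75 ± 0.16 (SE; limma adjusted p = 0.0111).

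Epha2, a receptor of epithelial cells for ephrins, was the only gene named in the study's lists that passed the threshold with a higher δ in cohort 2. Its intergenic DMR (chr5:159840886-159840887) ran from 10.8% to 20.2% at P2 and from 20.8% to 35.3% at P10 in cohort 2, and from 13.1% to 29.4% and from 10.3% to 31.0% in cohort 1. It rose in 8 of 8 pups of cohort 2 and fell in 7 of 11 of cohort 1, and the difference was 0.99 ± 0.27 (SE; limma adjusted p = 0.0336), a call that was lost without any of 10 of the 19 pups (adjusted p up to 0.0766). The 3 smallest p-values in this direction were at DMRs without a gene name, and there cohort 1 was the cohort that changed. At chr7:123193351-123193352 all 11 pups of cohort 1 fell, from a mean of 77.8% to 53.0%, and cohort 2 went from 58.6% to 66.5%, a difference of 0.75 ± 0.14 (SE; limma adjusted p = 0.00544). At chr17:42240493-42240494 cohort 1 went from 44.1% to 25.4% and cohort 2 from 33.0% to 35.1%. At chr7:129812323-129812324 cohort 1 went from 54.2% to 30.1% and cohort 2 from 36.7% to 38.4%, and the call there was lost without C8 or LBN4 of cohort 2 (adjusted p up to 0.0535). At these 3 DMRs the P2 level was lower in cohort 2 past the threshold.

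**Figure D4:**
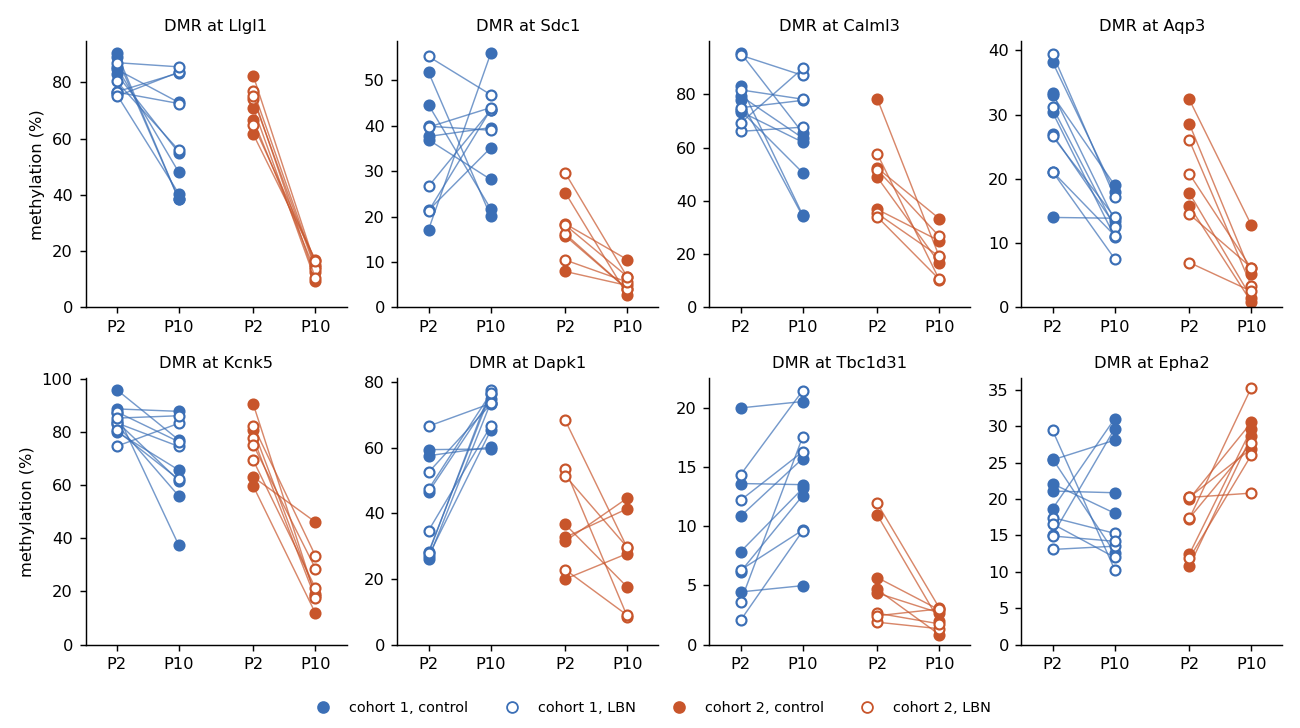
Methylation level in percent at P2 and P10 of every pup at 8 DMRs, with cohort 1 in blue on the left of each panel, cohort 2 in orange on the right, controls filled and LBN pups open. Each panel has its own scale from 0. Llgl1, Sdc1, Calml3, Aqp3 and Kcnk5 fall in all 8 pups of cohort 2, Dapk1 rises in all 11 pups of cohort 1, and Epha2 rises in all 8 pups of cohort 2.

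In the other gene lists between 0 and 2 DMRs passed the threshold, beside 6.2% of all DMRs. Among glycan-modifying enzymes, 2 of 9 DMRs (22.2%) were lower in cohort 2, and 0 after subtraction of the median of each pup: Man1c1, a mannosidase of the Golgi (chr5:152857797-152857798, −1.47 ± 0.42 SE, limma adjusted p = 0.0432), and B4galt4, a galactosyltransferase (chr11:64577981-64577982, −1.23 ± 0.32 SE, limma adjusted p = 0.0271). Man1c1 went from 41.5% to 56.0% in cohort 1 and from 35.8% to 19.6% in cohort 2, and B4galt4 from 44.1% to 48.1% and from 48.3% to 23.9%. The call at Man1c1 was lost without any of 14 of the 19 pups, and that at B4galt4 without C5, C8, LBN4, LBN9 or LBN11 of cohort 2. Among 6 DMRs of DNA methylation and chromatin enzymes, 3 were below 0 and 1 (16.7%) was lower past the threshold, and 0 after subtraction of the median of each pup: Kdm2b, a histone demethylase that binds unmethylated CpGs (chr12:39149541-39149542), which went from 53.4% to 64.1% and from 30.2% to 15.5%, a difference of −1.27 ± 0.34 (SE; limma adjusted p = 0.0336) that was lost without any of 12 of the 19 pups. Among those that did not pass, the methyltransferase Dnmt3a had a difference of 0.29, Hmga1 0.06, Smarce1 −0.57 and the demethylating enzyme Tet3 −1.04.

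Among homeobox factors, 0 of 17 DMRs passed, 11 were below 0, and the median was −0.16, that of all DMRs. The experiences had medians of opposite sign, −0.58 in controls alone and 0.10 in LBN pups alone, beside −0.13 and −0.24 over all DMRs. Of the 17, 13 were in the study's list of DMRs with generally less methylation after LBN. That list was picked from these same pups, and its medians were −0.42 and 0.11, so the opposite signs are not particular to homeobox factors. The largest difference was at Six2, −0.96 ± 0.42 (SE; limma adjusted p = 0.194), where levels went from 6.86% to 13.1% in cohort 1 and from 16.3% to 15.6% in cohort 2. Among other developmental transcription factors, 0 of 22 passed and 8 were below 0, with a median of 0.11 and the largest difference at Tbx3, −1.27 ± 0.50 (SE; limma adjusted p = 0.139). Their median was −0.24 in controls alone and 0.52 in LBN pups alone, and 11 of the 22 were in the same experience list. The homeobox and other developmental lists lost 9 DMRs, 6 and 3, that held a value of 0. Among growth factor, Wnt and guidance genes, 1 of 24, Epha2, passed. Efna5, which encodes a ligand of Eph receptors, lay just outside the threshold there, at −1.34 ± 0.40 (SE; limma adjusted p = 0.0504), and passed without C6 or C9 of cohort 1 or C11 of cohort 2.

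Among TNF, NF-kB and inflammatory genes, 0 of 17 passed, 9 were below 0 and the median was −0.03, with the largest difference at Card10, a scaffold of NF-kB signalling, −0.75 ± 0.24 (SE; limma adjusted p = 0.0718). Card10 was lower at P10 in every pup of both cohorts. Among extracellular matrix and stromal genes, 0 of 10 passed and 8 were below 0, with a median of −0.22 and the largest difference at Mrc2, a collagen receptor, −0.67 ± 0.37 (SE; limma adjusted p = 0.315), which passed without C11 of cohort 2 (adjusted p = 0.0431).

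The difference was found over the whole range of levels and over all autosomes. With DMRs grouped by their mean level over all samples, the difference in mean δ was −0.14 for the 353 DMRs under 25%, −0.28 for the 1061 from 25% to 45%, −0.27 for the 903 from 45% to 60%, −0.19 for the 702 from 60% to 75%, and −0.12 for the 335 at 75% and over. The exact permutation p ranged from 3.78e-05 to 0.00767, and all 5 passed after adjustment over the 5. In percentage points the differences were −1.06, −5.59, −7.61, −7.18 and −5.55. The gap was thus widest in middle groups on both scales, but the grouping itself can produce this. The mean level includes the P10 samples of cohort 2, so a DMR that fell there from a high level was moved toward the middle groups. Whether the gap depends on the starting level was not tested. The DMRs past the threshold made up 1.98%, 4.90%, 8.08%, 8.40% and 5.07% of these groups.

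The difference was −0.23 over the 2448 single positions and −0.23 over the 906 longer DMRs. By chromosome, the difference was below 0 on 20 of 20 autosomes, from −0.30 on chromosome 6 to −0.18 on chromosome 12, with exact permutation p-values up to 0.00454 on chromosome 7 (adjusted over the 20, 0.00454). These groups of DMRs were measured in the same swabs and are not separate replicates.

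**Figure D5:**
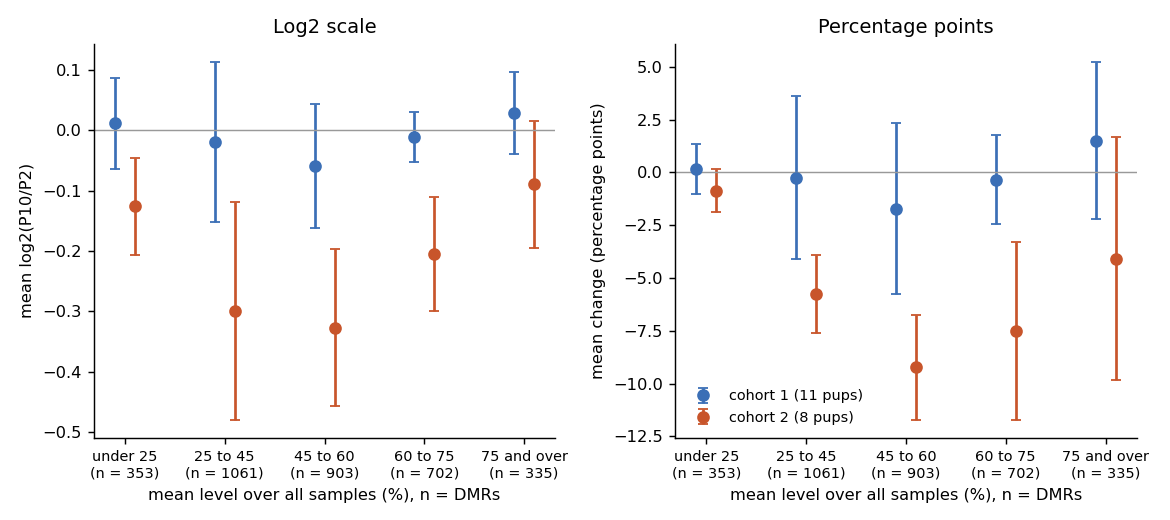
Mean δ methylation (left) and mean change in percentage points (right) of DMRs grouped by their mean level over all samples, with the mean and SD over 11 pups of cohort 1 and 8 pups of cohort 2. Cohort 2 lies below cohort 1 in all 5 groups, with the largest gaps from 25% to 60% on the log2 scale and from 45% to 75% in points.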

How the data were processed

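Buccal swab DNA of 19 pups at P2 and P10 was measured by RRBS. The authors trimmed reads with Trim Galore 0.4.3, aligned them to rn6 with Bismark 0.16.3, compared the ages of each pup by methylKit, merged neighbouring CpGs past its threshold into DMRs where at least 2 pups of an experience shared them, and deposited the methylation percent of each DMR and sample; no correction for cohort is visible in the values. No column was left unmatched to a sample. DMRs were joined by position, and 63 with a value of 0 were left out. Using R 4.3.3, limma 3.58.1 with moderated variances (Benjamini-Hochberg, threshold 0.05) was fitted to δ methylation, with cohort and experience, and to log2 levels. On simulated data the δ fit recovered 9.5%, 63.5% and 97% of 200 planted differences of 0.5, 1 and 2 among 3354 DMRs, with 0, 7 and 6 false calls. The simulated DMRs were independent of each other and had no shift common to all between cohorts, unlike these data, so the rates need not hold here. Means per pup were compared by two-sided exact permutation tests in Python 3.11.15. P2 and P10 were paired by pup, as the labels give it. Their deviations from the group means correlated at −0.625 to 0.459, with a median of −0.081 and only 6 correlations over 0.1. In most pups the swabs thus shared little beyond their groups, and δ cannot be assumed to remove a level particular to a pup. Gene names were taken from the study's lists by position. Named DMRs were, of those past the threshold with a gene name, up to 8 lowest and 8 highest (8 and 1), the 3 smallest p in each direction, the largest of each gene list and those with opposite changes past the threshold; the other named DMRs past the threshold were added after their values were seen. The comparison, gene lists and tests were chosen with earlier results of these data known. Alternatives were other scales, pseudocounts, centring, filters, variance models, each experience alone and each pup left out. The values of 1 gene list member are not reported here.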

Additional observations from a re-analysis of the deposited data

Results flagged for a closer look

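The 1 DMR past the threshold for an interaction of cohort and experience was intergenic, near Pik3cd, a kinase subunit of white blood cells (chr5:166629752-166629792). Its δ methylation was −0.03 ± 0.83 (SD, n = 6) in controls and 1.36 ± 0.41 (n = 5) in LBN pups of cohort 1, and 1.61 ± 0.80 (n = 4) and −0.44 ± 0.23 (n = 4) in cohort 2. The LBN minus control difference was thus −3.43 ± 0.57 (SE) lower in cohort 2 than in cohort 1 (limma adjusted p = 0.0322), and the call was lost when any of 12 pups was left out. In cohort 2 the levels went from 7.78% to 24.1% in controls and from 25.5% to 18.96% in LBN pups, so the P2 levels, taken before the experience, already differed.

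Of 164 groups of 4 to 6 pups tested for a pup far from the rest, 8 were flagged, and chance flags about 1 in 20. The control pup C1 of cohort 2 was flagged at 3 DMRs: Dapk1, where it was at −1.07 and the other controls at 0.34 to 0.50; chr9:30971388-30971396, at −0.72 against −1.52 to −1.44; and Kcnk5, at −0.45 against −2.34 to −2.10. LBN2 of cohort 2 was flagged at LOC102552318, at −0.80 against −1.35 to −1.28, and at B4galt4, at −0.54 against −1.25 to −1.23. C11 of cohort 2 was at −0.13 at Mmab, where the other controls were at −1.53 to −1.34. LBN11 of cohort 2 was at 1.24 at Six2, where the others were at −0.34 to −0.08, and LBN3 of cohort 1 was at 1.96 at Efna5, against −0.03 to 0.49.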

How the results depend on the processing

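The difference in mean δ methylation kept its sign and stayed past 0.05 under every scale, filter and subset tried, from −0.25 to −0.21 without single pups. This does not extend to centring on the pup median, which removes a shift of −0.18, most of the mean difference of −0.23. The counts of DMRs depended more on the setting. Against 201 lower and 7 higher DMRs, the log-odds scale gave 80 and 2, centring on the pup median 72 and 17, percentage points 111 lower, controls alone 0 and 0, and LBN pups alone 738 and 104. Without the replicate block, that is with P2 and P10 treated as unpaired, 382 were lower and 17 higher. Without single pups the counts ranged from 111 to 420 lower and from 2 to 15 higher. At P2, centring gave 148 lower and 200 higher, log-odds gave 114 higher, and leaving out pups gave 167 to 509 lower and 33 to 186 higher. At P10, centring gave 644 lower and 1298 higher, and leaving out pups gave 1313 to 1462 lower and 147 to 297 higher. Changed DMRs within a cohort numbered 473 to 1149 in cohort 1 and 802 to 1099 in cohort 2 without single pups. The interaction gave 2 DMRs on the log-odds scale and 0 to 238 without single pups, the most without LBN4 of cohort 1.

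For the groups of DMRs by level and length, alternatives chosen after the data were seen included controls alone, where −0.081 (under 25%, exact permutation p = 0.133), −0.16 (25% to 45%, p = 0.190), −0.11 (75% and over, p = 0.114) and −0.15 (single positions, p = 0.0667) no longer passed. Without single pups the 7 differences ranged from −0.16 to −0.12, −0.33 to −0.26, −0.31 to −0.25, −0.21 to −0.17 and −0.13 to −0.09 in order of level, −0.25 to −0.21 for single positions and −0.25 to −0.21 for longer DMRs. Of the 34 named DMRs past the threshold, 14 did not pass after centring, 19 on the log-odds scale, 18 in percentage points, 34 in controls alone and 1 without the replicate block, and 15 lost the call without at least 1 of the pups. Sipa1, which did not pass, changed sign in percentage points (6.58) and in LBN pups alone (0.43). The cause of these changes was not tested. Depth is unknown, so another coverage minimum could not be tried.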
